A study of Mus musculus with 67 samples.

Results

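In the retina of mice lacking Abca4 and Rdh8, 100 of the 16930 listed genes had a lower mean level at 1d than in NB. At 3d the mean was near or above that of NB. The genes were chosen by measured values. On the scale of group means of log2(CPM + 0.5), where CPM is the read count per M (mega) reads of library size, the level at 1d had to lie at least 0.7 below that of the NB group, the level at 3d at least 0.6 above that at 1d and no more than 0.35 below NB, and the mean NB level had to reach 2 CPM. Glul, P2ry12, Aqp4, Kcnj10, Slc1a3 and Rlbp1 were left out by the rule, of which Glul and P2ry12 met the thresholds, so that 102 genes met them in all. Because the retina values at NB, 1d and 3d chose the genes, those values are given below as a description without a test. The tests concern the retina at 6h, and the retinal pigment epithelium (RPE), whose libraries the choice did not use.

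All mice in every group were C57BL/6J abca4-/- rdh8-/-. Abca4 and Rdh8 are genes of photoreceptors that clear all-trans-retinal, a by-product of light detection, so both the reference and the later groups carried the deletions and no wild-type library is used here. The retina groups were NB with 6 libraries, 6h with 3, 1d with 4 and 3d with 4, and the RPE groups were NB with 5, 6h with 3, 1d with 4 and 3d with 4. The labels neither spell out NB nor give the event from which 6h, 1d and 3d count, and they give no age. A library came from both eyes of 1 mouse. Cornea, iris and lens were taken off before the retina was lifted out, and RPE cells were loosened from the eyecup by shaking. Recovered depth was 9.45 to 15.2 M (mega) reads in 12 retina libraries and 22.6 to 32.4 M in the other 5, which are the 6h libraries and NB A1 and NB A2. In RPE the 12 shallower libraries held 11.5 to 14.4 M reads and the 4 deeper ones, 6h and NB A1, held 23.1 to 26.8 M. Comparisons of 6h with NB therefore cross depth sets for part of NB, and comparisons of 1d and 3d with NB for the rest.

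Several kinds of cell contribute to RNA from these tissues. Cones carry colour and daylight vision through an opsin, a transducin and a phosphodiesterase. Müller glia span the retina and recycle the transmitter glutamate through glutamine synthetase, which Glul encodes. The RPE returns retinal to its light-sensitive form through the isomerase RPE65, and microglia are the resident immune cells. In bulk RNA, fewer cells of a type and less RNA per cell cannot be told apart.

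Of the 100 genes, 64 are protein-coding, 20 are long non-coding RNAs and 3 are pseudogenes in RefSeq, and 13 had no entry there. The median difference of 1d from NB was -0.96, with a range from -1.81 to -0.70, and the median over all retina genes was -0.01. From 1d to 3d the median difference was 0.87, with a range from 0.61 to 2.66. At 3d the genes lay at a median of -0.11 relative to NB, from -0.34 to 0.87, and 32 of the 100 were above NB. Most were low: 59 of 100 had an NB mean under 10 CPM, against 36.6% of all genes, and their median NB level was 7.22 CPM. All 4 libraries at 1d lay below all 6 NB libraries for 82 genes, against 18.1% of all genes, and all 4 libraries at 3d lay above all 4 at 1d for 86 genes, against 9.30%; these counts follow from the choice and nothing is read from them. For 18 genes the 1d and NB libraries overlapped, and 7 of these were the lens genes. Another annotated gene overlaps 44 of the 100, and for 25 it is protein-coding, as Calu for Opn1sw, Nf1 for Omg and Il18 for Bco2; the strand used in counting is not given in the sources used here, so reads of such pairs may not be separable.

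The thresholds cut through a continuum. Just inside the limit on 1d were Lim2 at -0.7004 and Pde6h at -0.7058, and just outside were Pigz at -0.6996 and Lctl at -0.6907. For the rise from 1d to 3d, Eaf2 at 0.612 and Fam228b at 0.616 were just inside, and Gm13562 at 0.592 and Elovl2 at 0.585 just outside. For 3d against NB, AC116597.1 at -0.344 and Etnppl at -0.343 were inside, and Nme5 at -0.356 and BC051142 at -0.358 outside. For the NB level, Gm37896 at 2.06 CPM and Gm44240 at 2.12 CPM were inside, and 4930405J17Rik at 1.99 CPM and Gm30684 at 1.93 CPM outside. Leaving out single NB, 1d or 3d libraries gave between 90 and 116 genes, and 47 of the 100 stayed whichever library was left out. A pseudocount of 2 gave 51 genes, of which 49 were among the 100, one of 0.1 gave 129 with 96 shared, and scaling to library totals gave 94 with 71 shared.

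The promoters of the cone genes and of Rpe65 are shown because these 4 genes are described in most detail below. Each line gives the 100 bases before the RefSeq start site on the gene's own strand, in build GRCm38.p6. Capitals mark the core read by OTX and CRX, homeodomain proteins of photoreceptors and RPE, spelled GGATTA and searched on both strands.
Opn1sw, chr6:29380514-29380613, minus strand: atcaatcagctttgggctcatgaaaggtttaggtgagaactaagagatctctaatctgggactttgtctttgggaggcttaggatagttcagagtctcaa
Gnat2, chr3:108092966-108093065, plus strand: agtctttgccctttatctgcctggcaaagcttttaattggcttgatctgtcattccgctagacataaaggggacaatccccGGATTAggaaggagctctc
Pde6h, chr6:136954423-136954522, plus strand: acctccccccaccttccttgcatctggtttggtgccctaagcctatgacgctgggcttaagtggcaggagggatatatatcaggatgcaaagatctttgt
Rpe65, chr3:159599081-159599180, plus strand: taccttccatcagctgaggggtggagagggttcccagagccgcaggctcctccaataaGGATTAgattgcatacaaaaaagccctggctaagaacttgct

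The matched letters began 19 bases before the start site in Gnat2 and 42 bases before it in Rpe65, and these letters were not found in the windows of Opn1sw and Pde6h. RefSeq held promoters of 300 bases, with 250 before and 50 after the start, for 63 of the 100 genes, 81 promoters in all. The OTX core was in 9 of the 81 (11.1%) and in 7.06% of all 32851 promoters. The core of NF1 sites, TTGGC, was in 49 of 81 (60.5%) and in 46.7% of all promoters. The core of glucocorticoid receptor sites, ACANNNTGT, was in 9 of 81 (11.1%) and in 6.85% of all. The other motifs searched, on both strands, were the E-box CACGTG in 7 of 81 (7.15% of all promoters), AP-1 TGACTCA in 6 (5.20%), the STAT motif TTCNNNGAA in 6 (8.30%), the homeodomain core TAATTA in 3 (5.29%) and the SOX core ACAAT in 19 (31.0%). The CRE motif TGACGTCA was found in none of the 81 and in 1.79% of all promoters. TAATTA and GGATTA can overlap by shared letters, and a match describes the letters only.

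Cones supplied 3 of the 100 genes. Opn1sw, the short-wave cone opsin, had NB levels from 302 to 461 CPM with a median of 417. At 6h it stood at 318, 320.3 and 309 CPM. At 1d the 4 libraries read 72.7, 121, 202 and 96.2 CPM, and at 3d 306, 358, 328 and 327 CPM. Every 1d library was below every other library of the retina, and NB A2, the lowest NB library, lay below every 6h and 3d library. Opn1sw showed the lowest difference at 1d of all 100 genes, -1.81, and its 6h value did not pass (log2 fold change -0.34 ± 0.20 SE, limma adjusted p = 0.185, n = 3 against 6).

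Gnat2, the cone transducin alpha subunit, ranged from 163 to 181 CPM in NB with a median of 173. It read 112, 125 and 120.3 CPM at 6h, then 56.1, 81.2, 87.4 and 56.5 CPM at 1d and 129.7, 139.9, 146 and 134 CPM at 3d. The 4 groups of libraries did not overlap, and no 3d library reached the NB range. Pde6h, the inhibitory subunit of the cone phosphodiesterase, was already at its low point at 6h, with 63.8, 73.0 and 67.0 CPM against 97.0 to 132 CPM in NB. Its 1d values of 57.3, 80.4, 77.7 and 71.2 CPM overlapped those of 6h, and at 3d it read 109, 113, 118 and 111 CPM, inside the NB range. Both genes were lower at 6h than NB, Gnat2 by -0.53 ± 0.11 (SE; limma adjusted p = 0.000645) and Pde6h by -0.77 ± 0.09 (limma adjusted p = 3.1e-06).

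The other cone genes did not move as a block. Of the 12 genes on a list of cone markers, 6 lay at least 0.7 below NB at 1d and 1 at least 0.7 above it. Opn1mw, the middle-wave opsin, fell like Gnat2 at 1d (difference -1.30) and came back to -0.42 of NB at 3d, and the cone arrestin Arr3 went to -1.30 and -0.50, so that both missed only the limit on 3d against NB. Cngb3, a subunit of the cone channel, went to -0.72 and -0.40. In the other direction, Gnb3, a transducin beta subunit, had means of 388 CPM in NB and 959 CPM at 1d. Pde6c, the catalytic subunit of the same phosphodiesterase, was 0.51 above NB, and Cnga3, the other channel subunit, 0.44 above. The summed list accordingly spanned 1564 to 1921 CPM at 1d and 1847 to 1942 CPM in NB. At 6h, 4 of the 12 were higher, 4 lower and 4 not past by limma.

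**Figure D1:**
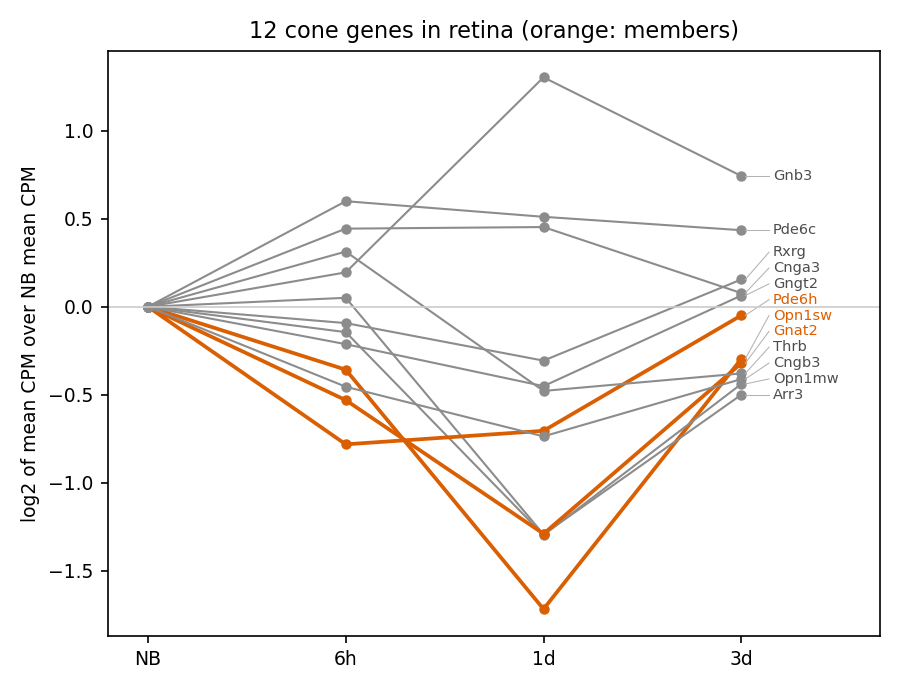
Mean retina level of 12 cone genes at NB, 6h, 1d and 3d as the log2 ratio of the group mean CPM to the NB mean; orange lines are Opn1sw, Gnat2 and Pde6h, grey lines the other 9. Opn1mw and Arr3 lie close to Gnat2 at 1d, though Arr3 at 6h averages 399 CPM against 385 CPM in NB. Gnb3, from 388 CPM in NB to 959 CPM at 1d, and Pde6c run above NB.

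Rods, whose genes were not among the 100, gave a different course. Of 30 rod genes 27 lay at least 0.7 below NB at 1d, and their median at 3d was still -0.82 of NB. The summed rod level was 93930 to 104050 CPM in NB, 30950 to 52352 at 1d and 50756 to 58339 at 3d. Among the 1d libraries the sum rose in the order 1d 1, 1d 4, 1d 2, 1d 3. Opn1sw, Gnat2, Spc25, Abca6, Slc16a1 and Dnaic2 shared that order, as did 14 of the 100 genes in all and 8.85% of all retina genes. The opposite order was held by 10 of the 100 and 7.84% of all genes, and the part of rod RNA in the values of these genes was not tested.

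Of the 34 genes on a list of Müller glia markers, Abca8a alone was among the 100. At 1d 2 of the 34 lay at least 0.7 below NB and 9 at least 0.7 above, with a median of 0.20, and Crym (3.23), Vim (1.77) and Clu (1.07) were among the higher ones. Abca8a, a lipid transporter of the ABCA family, ranged from 288 to 323 CPM in NB with a median of 306 and read 286, 275 and 265 CPM at 6h. At 1d it read 136, 176, 157 and 133 CPM, and at 3d 283, 281, 279 and 275 CPM, a spread of few CPM just under the NB range. Abca6 lies 77057 bases from it on chromosome 11 and fell from an NB mean of 14.1 ± 2.04 CPM (SD, n = 6) to 5.15 CPM at 1d and 11.1 CPM at 3d. Their neighbours in the same gene cluster differed, with Abca8b at -0.08 of NB at 1d, Abca5 at -0.34 and Abca9 at -0.59. Neither Abca8a (limma adjusted p = 0.101) nor Abca6 (limma adjusted p = 0.459) passed at 6h.

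Glns-ps1, a pseudogene of glutamine synthetase on chromosome 11, ranged from 23.5 to 32.8 CPM in NB and stood at 26.9, 24.0 and 25.8 CPM at 6h. It fell to 7.74, 8.24, 7.07 and 6.54 CPM at 1d and returned to 30.1, 27.6, 28.4 and 25.7 CPM at 3d. Its values were 0.852% to 1.22% of those of Glul in NB, 1.32% to 1.35% at 6h, 1.08% to 1.27% at 1d and 0.920% to 1.204% at 3d. Since its sequence resembles that of Glul, reads of the 2 genes cannot be told apart with certainty. Glul itself averaged 2698 CPM in NB, 1920 at 6h, 629 at 1d and 2703 at 3d. AC134576.3, for which no annotation was used, ran between 0.610% and 1.08% of Glul in the 17 retina libraries, with a difference of -1.74 at 1d.

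At lower levels, Fam107a, an actin-associated stress-response gene, held 22.3 to 26.1 CPM in NB, 9.23, 8.53, 5.76 and 9.35 CPM at 1d and 15.8, 20.4, 22.0 and 22.5 CPM at 3d, and its 6h libraries were spread at 26.6, 15.2 and 33.5 CPM. Slc13a5, a citrate transporter, overshot, from an NB median of 7.45 CPM to 3.23 to 4.01 CPM at 1d and 9.58, 11.2, 11.5 and 11.3 CPM at 3d. Folh1, which cleaves the peptide transmitter NAAG, and Etnppl, an enzyme of phosphoethanolamine breakdown, differed between the NB depth sets. Folh1 read 25.8 and 27.4 CPM in NB A1 and A2 but 12.9 to 15.2 CPM in the 4 other NB libraries, with 17.6 to 19.6 CPM at 3d. Etnppl read 6.96 and 7.17 CPM in NB A1 and A2 against 1.32 to 2.14 CPM in the others, and its 1d values of 0.893 to 1.41 CPM overlapped those others.

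**Figure D2:**
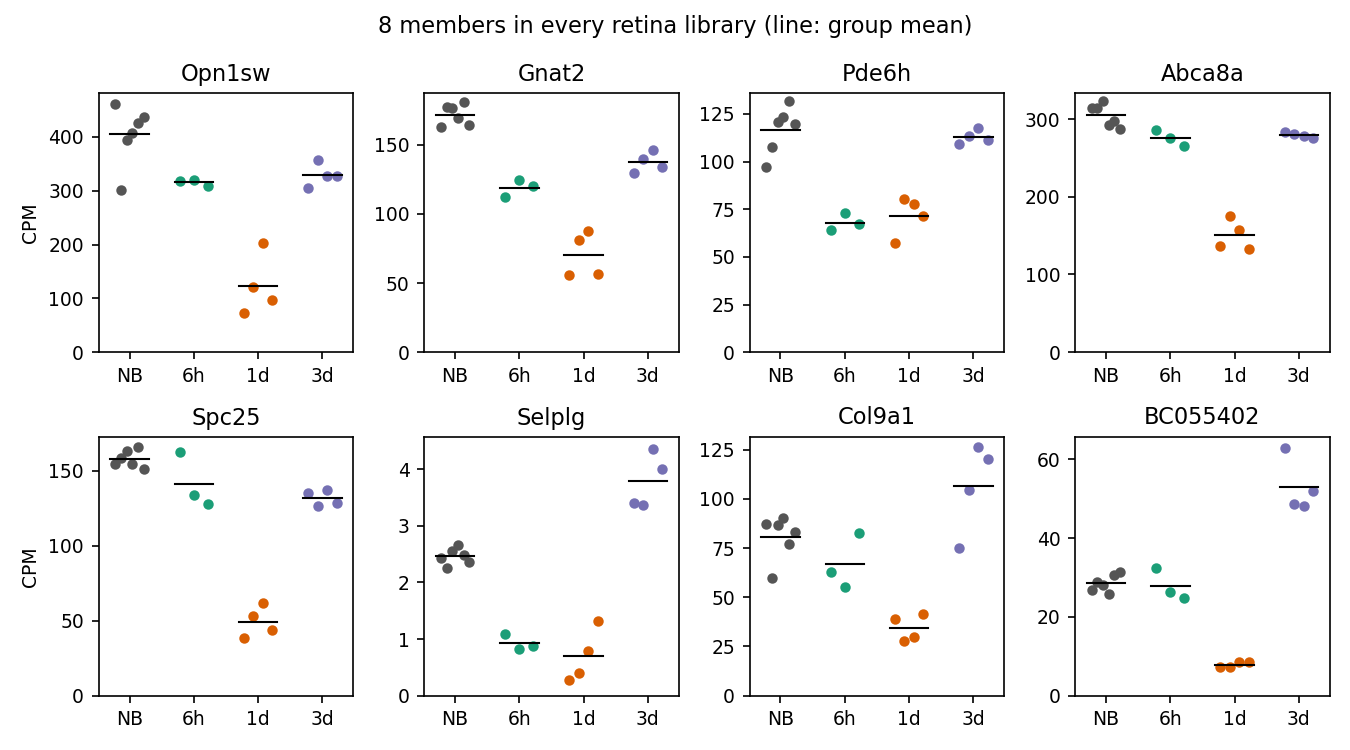
CPM of 8 genes in each of the 17 retina libraries by group, with a line at the group mean; each axis starts at 0. The 1d points lie below all NB points in each panel, Pde6h and Selplg are low at 6h already, and BC055402 and Selplg lie above all their NB points at 3d.

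Of leukocyte genes, Selplg, the P-selectin ligand, had NB values between 2.26 and 2.66 CPM. It read 1.09, 0.832 and 0.884 CPM at 6h, 0.280, 0.397, 0.785 and 1.32 CPM at 1d, and 3.401, 3.37, 4.36 and 4.01 CPM at 3d. Both early groups lay below all NB libraries and 3d above them, and the fall at 6h was past the threshold (-1.05 ± 0.20 SE, limma adjusted p = 0.000386). Cd52, a surface glycoprotein of leukocytes, went from an NB median of 4.87 CPM to 2.01 to 2.81 CPM at 1d and 3.93 to 5.39 CPM at 3d. On the list of 16 resting microglia genes, 13 were in the retina table and 4 lay at least 0.7 below NB at 1d. P2ry12 (-1.47), Siglech (-0.999) and P2ry13 (-0.85) were the others beside Selplg, and the last 2 missed the limit of 2 CPM in NB. Olfml3 was 1.07 above NB. At 3d the summed list reached 136 to 147 CPM against 55.7 to 73.4 CPM in NB, with Csf1r, the receptor that microglia need to survive, at a mean of 36.5 CPM against 15.7 CPM.

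Matrix genes included 2 collagens of cartilage and the vitreous. Col9a1 ranged from 60.03 to 90.5 CPM in NB and read 39.0, 27.7, 29.7 and 41.6 CPM at 1d and 75.0, 104.7, 127 and 120.3 CPM at 3d. Col2a1 ranged from 78.5 to 104 CPM in NB, read 49.5, 47.0, 58.0 and 45.4 CPM at 1d and returned to 81.0, 100.1, 98.4 and 99.3 CPM at 3d. Both were below all NB libraries at 1d, and 3 of 4 libraries at 3d lay above the NB range for Col9a1. Spon2, a secreted matrix protein, and Lama3, a laminin chain, varied more between libraries. Spon2 ranged from 1.59 to 10.2 CPM in NB and from 0.893 to 6.62 CPM at 1d. At 6h Spon2 read 6.91, 1.76 and 10.5 CPM and Lama3 10.6, 5.15 and 13.2 CPM. A list of 12 lens genes summed to 5703, 341 and 14021 CPM there. At 3d Spon2 read 9.16, 5.59, 12.9 and 10.8 CPM, in another order than the lens sums of 543, 1117, 9688 and 15525 CPM. The part of lens RNA in these values was not tested. Of the 26 matrix genes listed, 25 were in the retina table, with a median of 0.13 at 1d against NB, and 4 lay at least 0.7 below NB.

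Spc25 encodes a kinetochore protein of dividing cells. It ranged from 151 to 166 CPM in NB. It read 38.1, 52.8, 62.0 and 43.5 CPM at 1d and 135, 126, 137 and 128 CPM at 3d. Its 6h values of 162, 134 and 127 CPM reached into the NB range and the difference did not pass (limma adjusted p = 0.224). Hmgb2, a chromatin protein, and Rad54b, a DNA repair helicase, fell by 1.05 and 0.97 on the log2 scale at 1d. Cfap54, Ccdc39 and Dnaic2 encode parts of motile cilia, and they lay at -0.99, -0.83 and -0.75 at 1d. Ccdc39, which spaces the dynein arms, read 28.4, 26.7 and 25.8 CPM at 6h, well below its NB range of 39.9 to 49.4 CPM, and 41.6, 39.0, 37.3 and 39.2 CPM at 3d.

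The largest rise from 1d to 3d was that of the long non-coding RNA BC055402, 2.66 on the log2 scale. It ranged from 25.9 to 31.4 CPM in NB, read 7.27, 7.34, 8.55 and 8.44 CPM at 1d and 62.9, 48.6, 48.2 and 51.9 CPM at 3d, all above NB. Its 6h values of 32.3, 26.4 and 24.9 CPM overlapped NB. Next came Selplg (1.91), Glns-ps1 (1.85), Cyp4f14 (1.84), Olfm4 (1.83), AC134576.3 (1.78), Col9a1 (1.61) and Spon2 (1.54). Cyp4f14, a fatty acid hydroxylase, read 0.695 to 1.32 CPM at 1d and 4.01 to 5.44 CPM at 3d. Olfm4, a secreted glycoprotein, read 4.10, 6.35, 5.32 and 5.21 CPM at 1d and 20.1, 19.8, 18.9 and 20.2 CPM at 3d, and the non-coding gene Gm6999 lies 16165 bases from it on chromosome 14. Gpld1, a phospholipase that releases GPI-anchored proteins, was steady within groups, at 56.9 to 63.8 CPM in NB, 33.7 to 37.4 CPM at 1d and 70.9 to 74.5 CPM at 3d. Il20ra, an interleukin receptor chain, and Gm49542 lay among the 12 lowest at 1d, at -1.51 and -1.41.

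Lens genes met the rule without a difference between groups that exceeds their spread. Cryaa, Cryba1, Cryba2, Cryba4, Crybb2, Crygs and Lim2 are crystallins and a membrane protein of lens fibres. Cryaa read 1802 and 94.7 CPM in NB A1 and A2 and 3436 to 4159 CPM in the other NB libraries. It read 6088, 634, 49.7 and 3895 CPM at 1d and 258, 464, 4958 and 7767 CPM at 3d. At 1d the highest library exceeded the lowest by 57.6 to 122 times over the 7 genes, against a median of 1.597 times over the other 93 genes. The whole list of 12 lens genes summed to 210 to 7911 CPM in NB, 341 to 14021 at 6h, 118 to 11370 at 1d and 543 to 15525 at 3d, and the groups overlapped throughout. None of the 7 was past the threshold at 6h by limma (0 of the 7 at an unadjusted p under 0.05). Without them 93 genes remain, and with the 4 shallower NB libraries alone all 7 leave the rule.

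**Figure D3:**
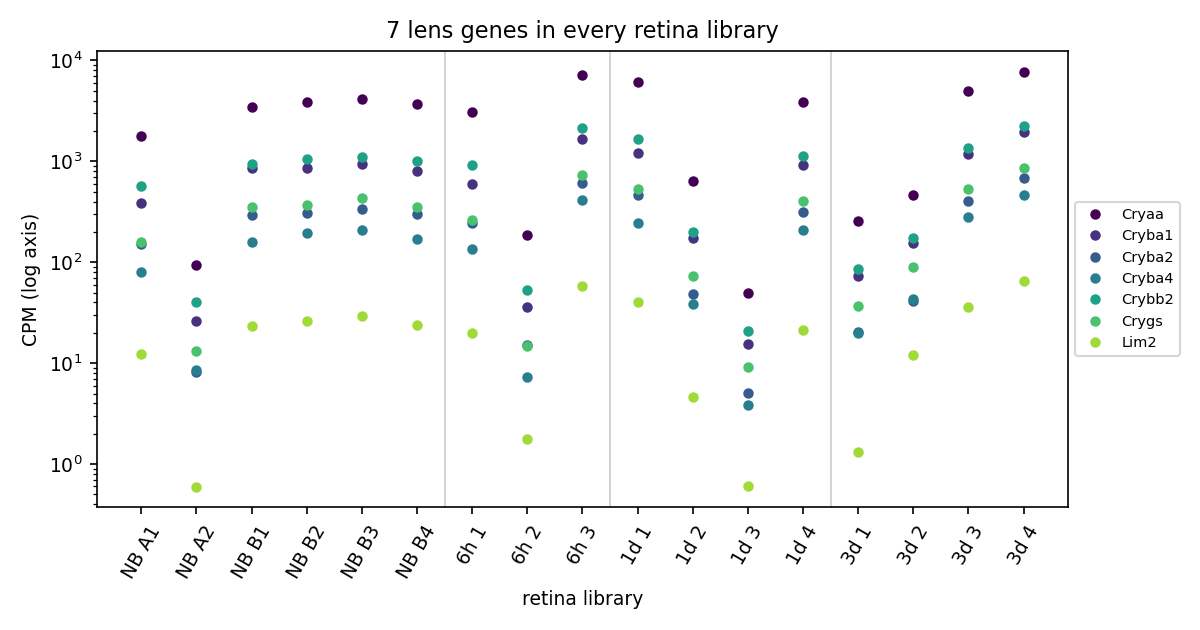
CPM (log axis) of the 7 lens genes in each retina library, with grey lines between NB, 6h, 1d and 3d. The genes move together from library to library, Cryaa from 49.7 CPM in 1d 3 to 7767 CPM in 3d 4, and every group holds both high and low libraries.

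At 6h, which the rule did not use though NB is shared with it, 45 of the 100 genes were lower and 3 higher than NB by limma at an adjusted p under 0.05. Over all 16926 genes tested, 18.5% were lower and 16.9% higher. Because the NB libraries also chose the 100 genes, an NB level high by noise tilts their 6h differences toward lower. The shares over all genes carry no such tilt. The median difference of the 100 was -0.35 and that of all genes 0.00. With NB A1 and A2 alone, the NB libraries of the depth of 6h, 37 of the 100 were lower, against 2078 of all 16926 genes. The 8 genes lower with the smallest adjusted p were Gm9392 (-1.56 ± 0.14 SE), Lrrc66, Ccdc39, Pde6h, Gm43545, St6galnac2, Esrp1 and A430105J06Rik. Gm9392, a pseudogene overlapping Gtf2h1, read 1.68, 1.25 and 1.27 CPM at 6h against 3.68 to 5.88 CPM in NB. Lrrc66 read 7.04, 7.94 and 8.24 CPM against 13.4 to 17.1 CPM, and St6galnac2, a sialyltransferase, 24.0, 24.1 and 22.8 CPM against 32.6 to 47.6 CPM. Esrp1, a splicing regulator of epithelia, read 1.18, 1.44 and 1.06 CPM against 2.46 to 5.12 CPM.

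Besides Gnat2, Pde6h and Selplg, the calls at 6h included the cilium genes Ccdc39, Cfap54 and Dnaic2, and Cd52. The call of Dnaic2 was lost against NB A1 and A2 alone (limma adjusted p = 0.0761), and that of Cd52 in 6 of 9 fits that left out a single library (limma adjusted p up to 0.11). Of the 6 lowest at 1d, Opn1sw, BC055402, Glns-ps1, Rpe65, AC134576.3 and Spc25, the 6h differences lay between -0.34 and -0.04 and did not pass. All 3 libraries at 6h lay above all 4 at 1d for 50 genes, against 19.4% of all genes, a count that uses the 1d values of the rule and from which nothing is read. The 3 genes higher at 6h were AW047730, Enpp2 and Mroh7. The non-coding AW047730 read 11.4, 11.3 and 9.26 CPM against 5.39 to 7.81 CPM in NB (0.64 ± 0.12 SE, limma adjusted p = 0.00046). Enpp2, described with the RPE below, lost its call without library 6h 3 (limma adjusted p = 0.0527), and Mroh7 without 6h 2 (limma adjusted p = 0.0622).

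**Figure D4:**
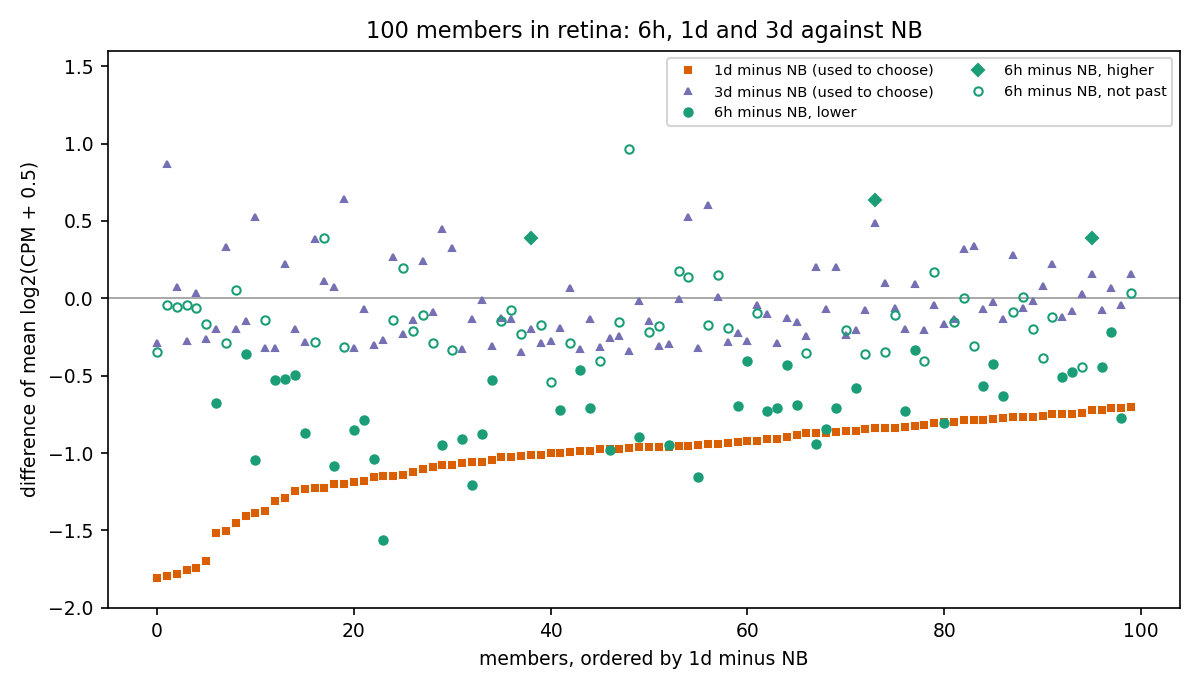
Differences from NB in retina for the 100 genes, ordered by 1d minus NB: orange squares 1d and purple triangles 3d, which chose the genes, and green symbols 6h, filled where past the limma threshold. Most green points lie between 0 and the orange line, with a median of -0.35, and 3 diamonds lie above 0.

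In RPE, 80 of the 100 genes were in the table and all 80 were tested, and the other 20 were not analysed in RPE. At 1d 16 of the 80 were lower than NB by limma, against 3.84% of all 16712 genes, and 1 was higher, against 1.77%. From 1d to 3d 18 of the 80 rose, against 4.92% of all genes, and none fell, against 1.66% (36 of the 80 had an unadjusted limma p under 0.05 in either direction). The medians of the 80 were -0.33 at 1d and 0.59 from 1d to 3d, and those of all genes 0.00 and -0.01. Both calls fell on 15 genes: Bco2, Ccdc39, Dnaic2, Enpp2, Fam107a, Gm10644, Gm534, Gulp1, Omg, Pla2g5, Rpe65, Rrh, Slc16a1, Sostdc1 and Tmem72. The 2 comparisons share the 1d libraries, so a low 1d value enters both. Under every alternative run, 9 of the 17 calls at 1d and 6 of the 18 from 1d to 3d held. The calls of Ccdc39 and Omg from 1d to 3d were each lost in 5 of 8 fits that left out a single library. At 1d the call of Gm10644 was lost in 5 of 9. All 1d libraries lay below all NB libraries for 15 of 80 genes, against 5.27% of all genes, and all 3d libraries lay above all 1d libraries for 21, against 10.6%. All 1d libraries lay below all NB libraries and all 3d libraries above all 1d libraries for 15 of 80, against 3.82% of all genes. Without RPE library 1d 4, 10 of the 80 were lower at 1d and 10 rose to 3d, against 392 and 337 of all 16712 genes. Without 3d 2, 9 rose, against 261 of all genes.

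Of the 100 genes, Rpe65 alone is on the list of 20 RPE markers. Rpe65, the isomerase of the visual cycle, read 3763, 2431, 2486, 1879 and 1752 CPM in the NB libraries of RPE. It read 461, 613, 293 and 359.7 CPM at 1d and 1306, 2722, 1949 and 1865 CPM at 3d. All 1d libraries lay below all NB and 3d libraries, and 3 of 4 at 3d were within the NB range. The fall at 1d was -2.51 ± 0.27 (SE, limma adjusted p = 4.3e-05) and the rise to 3d 2.19 ± 0.28 (limma adjusted p = 0.000792).

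Tmem72, a transmembrane protein, read 555, 346, 334, 248 and 278 CPM in NB, 79.99, 99.95, 57.0 and 68.1 CPM at 1d and 223, 438, 282 and 270.2 CPM at 3d (1d against NB -2.17 ± 0.23 SE, limma adjusted p = 3.8e-05). Sostdc1, a secreted antagonist of BMP and WNT signals, read 102, 85.7, 81.7, 70.6 and 74.5 CPM in NB, 18.9, 27.6, 22.6 and 13.9 CPM at 1d and 46.0, 72.9, 52.5 and 51.4 CPM at 3d (-2.003 ± 0.20 SE, limma adjusted p = 2.1e-05). The long non-coding Gm534 read 89.9, 39.8, 44.9, 34.5 and 46.8 CPM in NB and 6.78, 14.8, 6.02 and 6.82 CPM at 1d, with 30.2, 55.1, 38.1 and 37.7 CPM at 3d. In each of these genes the 1d libraries stood apart from both other groups.

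Enpp2, which encodes autotaxin, the enzyme that makes lysophosphatidic acid, came back less far in RPE. It read 2689, 1949, 1890.0, 1420.3 and 1525 CPM in NB, 573, 614, 445 and 548 CPM at 1d and 889.6, 1363, 953 and 1078 CPM at 3d. All 3d libraries were below all NB libraries, but the difference did not pass (-0.81 ± 0.20 SE, limma adjusted p = 0.189). Its rise from 1d to 3d (0.96 ± 0.21 SE, limma adjusted p = 0.0158) lost its call without library 3d 2 (limma adjusted p = 0.0569).

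Slc16a1, the lactate transporter MCT1, and Rrh, the opsin peropsin, moved alike at lower amplitude. Slc16a1 read 332 to 614 CPM in the 5 NB libraries of RPE, 229, 215, 169 and 199.9 CPM at 1d and 335, 549, 373 and 369 CPM at 3d. Rrh read 232 to 411 CPM in NB, 133, 151, 91.7 and 129 CPM at 1d and 219, 381, 237 and 244 CPM at 3d. Both were lower at 1d, by -1.08 ± 0.19 and -1.18 ± 0.21 (SE), each at a limma adjusted p of 0.00246. Bco2, a carotenoid-cleaving enzyme, the secreted phospholipase Pla2g5 and the engulfment adaptor Gulp1 fell by 0.80, 0.79 and 0.99 on the log2 scale. At 1d the limma call was lost for Gulp1 in 6 of 9 fits that left out a single library (adjusted p up to 0.115), for Pla2g5 in 4 of 9 (adjusted p up to 0.0859) and for Bco2 in 1, without 1d 4 (adjusted p = 0.053). From 1d to 3d the calls of Gulp1 and Pla2g5 were lost without 1d 4 or 3d 2.

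Some summed marker levels moved with these values in RPE. The summed level of 20 RPE genes was 18580 to 30742 CPM in NB, 12126 to 16120 at 1d and 20030 to 35828 at 3d, and 7 of the 20 were lower and 1 higher at 1d by limma. Among the lists of other cell types, the endothelial and resting microglia sums also lay below NB at 1d, and the rest did not. Müller glia genes summed to 18339 to 26909 CPM in NB and 16715 to 22349 at 1d. The same list summed to only 8337 to 9616 CPM in NB retina, whose table was normalized separately. In RPE this sum is therefore not a measure of Müller glia alone. The cone list was higher at 1d, at 210 to 443 CPM against 113 to 157 CPM in NB. Endothelial genes summed to 1107 to 1548 CPM in NB, 705 to 933 at 1d and 1121 to 1863 at 3d, with 4 of 19 lower and 1 higher at 1d. Resting microglia genes summed to 328 to 385 CPM in NB, 189.6 to 253 at 1d and 346 to 447 at 3d. Rod genes in the same libraries summed to 6952 to 10349 CPM in NB and 5522 to 13062 at 1d. The part of changed shares of cells in the values of single genes was not tested.

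In the retina the same genes ran at lower levels. Rpe65 ranged from 56.1 to 69.9 CPM in NB, 20.3, 23.0, 22.6 and 11.6 CPM at 1d and 34.3, 62.2, 63.6 and 59.1 CPM at 3d. Set against RPE, whose table was normalized separately, its mean was 2.62% of that in RPE for NB, 6.72% at 6h, 4.49% at 1d and 2.80% at 3d. Of the 80 genes 11 had an NB level in RPE at least 4 times that in retina, among them Rpe65, Tmem72, Esrp1, Enpp2, Sostdc1, Fam107a, Rrh and Lama3, and in 21 the NB level in retina was over 4 times that in RPE. In retina the list of RPE genes, 19 of 20 measured, summed to 513 to 741 CPM in NB, 868 to 1378 at 6h, 576 to 673 at 1d and 524 to 931 at 3d. RPE RNA in the retina libraries and expression in the retina cannot be told apart for these genes. Slc16a1 stood at 48.6% of its RPE level in NB. In retina it read 184 and 195 CPM in NB A1 and A2 and 222 to 227 CPM in the other NB libraries. It read 99.2, 125, 125 and 101 CPM at 1d and 169, 176, 183 and 174 CPM at 3d. All 3d libraries lay below all NB libraries, and with the 4 shallower NB libraries alone Slc16a1 leaves the rule.

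**Figure D5:**
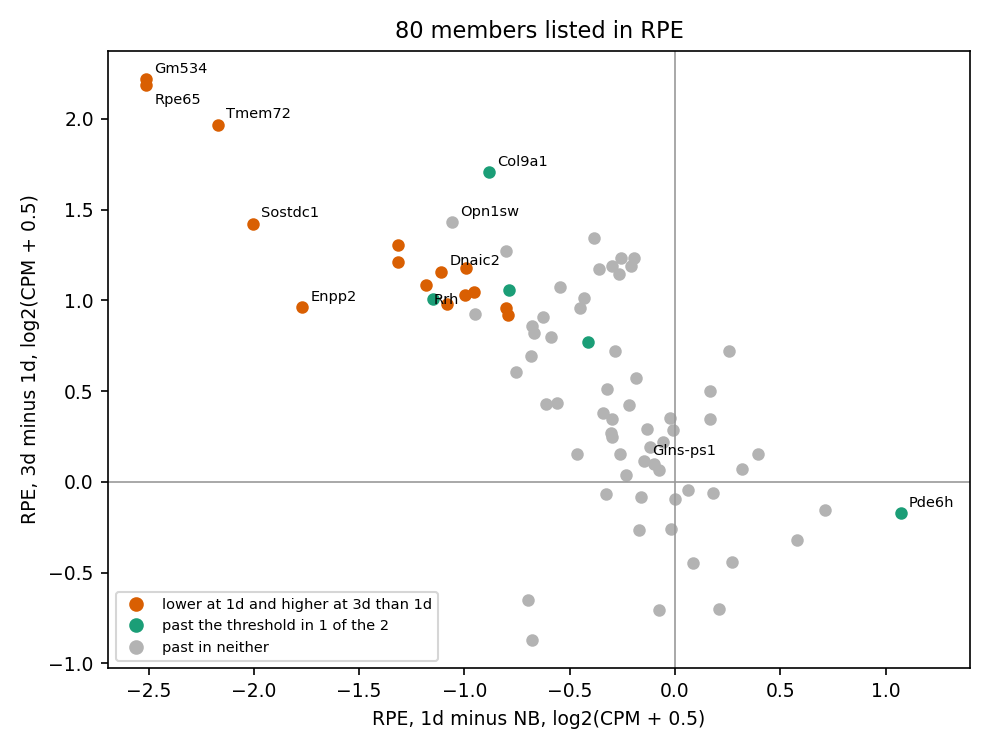
Difference of 1d from NB against difference of 3d from 1d in RPE for the 80 genes listed there, on the log2(CPM + 0.5) scale; orange points passed in both comparisons and green points in 1. Rpe65 lies at -2.51 and 2.19, and Pde6h lies alone at the right, at 1.07.

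The 3 cilium genes were also lower in RPE at 1d. Dnaic2, an outer dynein arm chain, fell to 4.10, 3.46, 2.24 and 2.93 CPM at 1d from 5.43 to 9.32 CPM in NB (-1.11 ± 0.21 SE, limma adjusted p = 0.00418). Ccdc39 (-1.32 ± 0.31 SE, limma adjusted p = 0.0196) lost its call without 1d 2 or 1d 4, and Cfap54 (-1.15 ± 0.28 SE, limma adjusted p = 0.0254) in 5 of 9 fits that left out a single library. Fam107a fell to 64.1, 63.0, 58.0 and 35.5 CPM from 73.6 to 132 CPM (-0.996 ± 0.22 SE, limma adjusted p = 0.0125). Col9a1 rose from 15.1 to 42.6 CPM at 1d to 58.3 to 130.0 CPM at 3d (1.71 ± 0.33 SE, limma adjusted p = 0.00792). The cone genes showed no common course there: Opn1sw differed by -1.06 ± 0.59 at 1d (limma adjusted p = 0.314) and Gnat2 by -0.63 ± 0.31 (limma adjusted p = 0.247). Pde6h, in contrast to its fall in retina, read 20.4, 18.7, 10.3 and 11.4 CPM at 1d against 5.29 to 8.81 CPM in NB (1.07 ± 0.30 SE, limma adjusted p = 0.0478), a call lost in 7 of 9 fits that left out a single library (limma adjusted p up to 0.137). The cone list summed to 113 to 157 CPM in NB and 210.4 to 443 CPM at 1d in RPE, and 4 of its 12 genes were higher at 1d. Glns-ps1, one of the lowest in retina at 1d, read 14.6, 14.7, 13.2 and 11.3 CPM in RPE against 9.47 to 24.2 CPM in NB (-0.15 ± 0.22 SE, limma adjusted p = 0.737).

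At 6h in RPE, 4 of the 80 were lower, against 0.652% of all genes, and none higher, against 0.808% (16 of the 80 had an unadjusted limma p under 0.05 in either direction). The 4 were Sostdc1 (-1.59 ± 0.21 SE, limma adjusted p = 0.0038), Rpe65 (-1.35 ± 0.29, limma adjusted p = 0.0378), Enpp2 (-0.98 ± 0.22, limma adjusted p = 0.0401) and Tmem72 (-1.06 ± 0.25, limma adjusted p = 0.0493). Rpe65 read 721, 1036 and 1076 CPM at 6h, Enpp2 718, 1050.2 and 1089 CPM, and Sostdc1 19.5, 34.0 and 29.9 CPM, all below every NB library. Without library 6h 1, 6h 3, NB B1, NB B2 or NB B4, each left out in turn, the call held for Sostdc1 alone. With values scaled to library totals 1 of the 80 was lower, and 81.0% of the calls over all genes were higher, against 55.3% as deposited. At 3d against NB 1 of the 80 was lower, Rgcc, a cell-cycle regulator (-1.55 ± 0.28 SE, limma adjusted p = 0.0309), against 0.018% of all genes. None was higher, against 0.162% of all genes (12 of the 80 had an unadjusted limma p under 0.05 in either direction). Rgcc read 15.4, 8.16, 10.98, 5.67 and 5.14 CPM in NB and 1.70, 2.05, 3.56 and 3.198 CPM at 3d. Leaving out NB A1, NB B1, NB B2, 3d 1, 3d 2 or 3d 4 ended that call.

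Whether a gene answered differently in the 2 tissues at 6h was tested in 1 fit of both, each against its own NB. That fit treated all 33 libraries as independent, with 1 spread for both tissues. The labels do not say whether retina and RPE libraries came from the same mice. Of 80 genes 20 passed, and of all 15105 genes in that fit 2653. The retina NB libraries, which also chose the genes, enter this test. Enpp2 rose in retina, from an NB range of 114 to 149 CPM to 174, 154 and 197 CPM, and fell in RPE, and the difference of responses was 1.37 ± 0.23 (SE, limma adjusted p = 0.00016). Rpe65 (1.31), Tmem72 (1.25), Sostdc1 (1.14) and Rrh (0.78) also had the higher response in retina. Gm9392 (-1.66), Pde6h (-1.45), Il20ra (-1.31), Gnat2 (-1.20), Esrp1 (-1.19), Lrrc66 (-1.05) and St6galnac2 (-0.87) had the lower response in retina. In RPE the summed cone list was higher at 6h, at 200 to 399 CPM against 113 to 157 CPM in NB. The part of this rise in the differences of Pde6h and Gnat2 was not tested. All 6h libraries in both tissues are of the deeper set.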

How the data were processed

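RNA libraries of retina and RPE were compared, 33 in all. The deposited values are a normalized signal, CPM on an effective library size, per the file headers. Trimmomatic, STAR and edgeR and the build GRCm38 are named in the submitters' processing notes, and the read counter is not given in the sources used here. Whole reads were recovered from the deposited values. The other tables of a tissue held the same values per library. NB columns matched their group but no single sample, and the names A1, A2 and B1 to B4 are given here.

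Genes reaching 1 CPM in at least 3 libraries were tested with limma 3.58.1 (R 4.3.3) on log2(CPM + 0.5), with all groups of a tissue in 1 fit, mean-variance trend and Benjamini-Hochberg adjustment, threshold 0.05. Fold changes on this scale understate the change of low genes. Retina and RPE tables were normalized separately. edgeR 4.0.16 (quasi-likelihood) and DESeq2 1.42.0 ran on the recovered reads as alternatives, and the procedure was tested on simulated data. Replicates are separate mice as far as the labels say.

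Named genes were the 12 lowest at 1d, the 8 with the largest rise to 3d, those on a gene list, up to 8 per direction with the smallest adjusted p in retina at 6h and RPE at 1d, the nearest to each threshold and the 8 highest in NB; others were named for a known role after their values were seen. The genes and lists were chosen with earlier results of these data known. Chromatin accessibility samples were not analysed here.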

Additional observations from a re-analysis of the deposited data

Results flagged for a closer look

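Of 225 groups of values examined, 14 held 1 library far from the others of its group, where chance gives about 1 in 20. In retina, library 3d 1 was the low one for Rpe65 (34.3 CPM), Rrh (46.4 CPM), Col2a1 (81.0 CPM) and Slc13a5 (9.58 CPM). The other retina cases were AC134576.3 in 3d 4 (19.3 CPM), AW047730 in 3d 3 (10.9 CPM) and Fam107a in NB A2 (26.1 CPM). In RPE, library 3d 2 was high for Rrh (381.0 CPM) and Dnaic2 (11.1 CPM), and NB A1 stood apart for Gm534 (89.9 CPM) and AC134576.3 (16.7 CPM). Gm534 in 1d 2 (14.8 CPM), BC055402 in 1d 1 (1.26 CPM) and Lrrc66 in 3d 1 (6.09 CPM) were the others.

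The response at 6h differed between retina and RPE for 12 of the named genes, by the limma test of the difference with Benjamini-Hochberg adjustment. Retina minus RPE was positive for Enpp2 (1.37, adjusted p = 0.00016), Rpe65 (1.31, adjusted p = 0.0117), Tmem72 (1.25, adjusted p = 0.00854), Sostdc1 (1.14, adjusted p = 0.00765) and Rrh (0.78, adjusted p = 0.0211), on the log2 scale. By the same limma test it was negative for Gm9392 (-1.66, adjusted p = 8.3e-06), Pde6h (-1.45, adjusted p = 0.00403), Il20ra (-1.31, adjusted p = 0.00715), Gnat2 (-1.20, adjusted p = 0.019), Esrp1 (-1.19, adjusted p = 0.0187), Lrrc66 (-1.05, adjusted p = 0.0189) and St6galnac2 (-0.87, adjusted p = 0.00124). The summed list of RPE genes was higher in retina at 6h (868 to 1378 CPM against 513 to 741 CPM in NB) and lower in RPE (12318 to 17603 CPM against 18580 to 30742 CPM). The summed cone list was higher in RPE at 6h (200 to 399 CPM against 113 to 157 CPM in NB). The part of either list in these differences was not tested.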

How the results depend on the processing

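No named call changed direction under any alternative run. The 45 genes lower in retina at 6h became 39 to 46 with single libraries left out, 49 by edgeR and 50 by DESeq2. Over all genes 3137 were lower in the main fit, 2352 to 3124 with single libraries left out, 3355 by edgeR and 3083 by DESeq2. The 4 lower in RPE at 6h became 1 scaled to library totals, 7 by DESeq2, 0 against NB A1 alone (where the single NB library is assumed to vary like the other groups) and 1 to 5 with single libraries left out. The 16 lower in RPE at 1d became 10 to 18 with single libraries left out, and the 641 lower over all genes became 392 to 991. The 1 lower at 3d against NB became 0 scaled to totals, 2 by DESeq2, 0 with the NB B libraries alone and 0 to 1 with single libraries left out. The 18 higher at 3d than 1d became 9 to 21 with single libraries left out, and 25 by DESeq2. Over all genes 823 were higher, 261 to 896 with single libraries left out and 1270 by DESeq2. Deviations of same-numbered 1d and 3d samples of RPE from their group means correlated at -0.0406, 0.155, 0.0932 and 0.1322. Samples of unlike number were not compared, so these values cannot decide whether the numbers pair the samples. A replicate block gave 7 genes higher at 3d than 1d, against 12 for the same 2 groups without it. The fit without it was added after seeing the data. With the block the rises of Col9a1, Fam107a, Dnaic2 and Enpp2 did not pass. No paired analysis was possible for comparisons with NB because its columns carry no usable numbers. The rule gave 51 genes with a pseudocount of 2 and 129 with 0.1. By DESeq2, 58.3% of all calls at 3d against NB and 64.2% at 3d against 1d in RPE were higher, against 90.0% and 74.8% by limma. The cause of these shifts was not tested. Low levels and 3 to 6 libraries a group limit the precision of single genes.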
